A study of Mus musculus with 18 samples.

Results

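The genes described are the nuclear-encoded subunits of the mitochondrial respiratory chain and ATP synthase, measured in phagocytes of the mouse small intestine. They were chosen by name: every gene whose probe carries a single symbol starting with Ndufa, Ndufb, Ndufc, Ndufs, Ndufv, Sdha, Sdhb, Sdhc, Sdhd, Uqcr, Cox4i, Cox5, Cox6, Cox7, Cox8 or Atp5, without pseudogenes and Ndufaf assembly factors. This gave 83 of the 22180 genes measured, on 93 probes. Of these, 79 encode subunits, and the other 4, Sdhaf1 to Sdhaf4, share the letters Sdha but encode assembly factors of complex II and are described apart. Complex I holds 32 of the subunit genes, complex II 4, complex III 7, complex IV 19 and complex V 17.

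Expression was measured on 18 arrays, 3 for each of 6 groups of sorted cells. All mice were of the VDTR strain, of both sexes and of an age not given in the sources used here. In this strain, as background, the villin promoter drives a diphtheria toxin receptor joined to green fluorescent protein (GFP) in gut epithelial cells. All mice also received diphtheria toxin, 2 ng per kg into the peritoneum, 4 hours before death, so no group is free of toxin. The cells were live CD45+ CD11c+ MHCII+ phagocytes in 3 populations. Dendritic cells (DCs) were CD103+ CD24+, the first macrophage population was CD103+ CD11b+ CD64+ (CD103 macrophages here) and the second CD11b+ CD64+ (CD11b macrophages). Each population was sorted into GFP-plus and GFP-minus cells. The labels do not tie replicates to separate mice, so p-values measure the spread between these samples, which may be technical.

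Values are deposited as logarithms, read here as log2, with the median of every probe set to 0 across the 18 arrays, and are called centred log2 values. They show differences of 1 gene between groups, and neither its absolute level nor its level against another gene. All 9 DC markers were higher in DCs than in either macrophage population, with median differences of 2.12 over CD103 macrophages and 1.52 over CD11b macrophages. All 11 macrophage markers were lower in DCs, with medians of -4.88 and -4.92. Both lists were drawn up with genes of proteins used in the sort (Itgae for CD103, Cd24a, Fcgr1 for CD64 and Itgam for CD11b). For such genes the counts are no independent check of identity. The 4 arrays of lowest estimated array weight are called low-quality here, a cut by rank. They include GFP-plus CD103 macrophage replicate 1 (weight 0.352) and GFP-plus DC replicate 1 (0.414). Also among them are GFP-minus CD103 macrophage replicate 2 (0.437) and GFP-minus CD11b macrophage replicate 1 (0.507). GFP-plus DC replicates 2 and 3 had weights of 0.664 and 0.617, and GFP-minus DC replicate 1 had 0.637. The spread of all genes (interquartile range) was 0.669, 0.431 and 0.536 on GFP-plus DC arrays. On GFP-minus DC arrays it was 0.407, 0.301 and 0.319.

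Oxidative phosphorylation runs through a chain of complexes in the inner mitochondrial membrane. Complexes I and II pass electrons from NADH and succinate to ubiquinone, complex III passes them to cytochrome c and complex IV to oxygen. Complexes I, III and IV pump protons, and complex V, the ATP synthase, uses the proton gradient to make ATP. Most subunits are encoded in the nucleus, and a small set of core subunits of complexes I, III, IV and V is encoded by mitochondrial DNA. In macrophages and DCs the balance of respiration and glycolysis is known to shift with activation.

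Promoter sequences are shown for 5 of these genes, chosen because each passed a test or had one of the smallest p-values of a comparison. They come from RefSeq on the mouse build GRCm38.p6, run 5′ to 3′ on the gene's strand and cover 250 bases before to 50 after the start of the gene. Capitals mark matches to the letters of NRF1 (GCGCA and GCGC parted by any 1 base), ETS factors (CCGGAAG) or YY1 (AAGATGGC), searched on both strands.
Ndufb10, chr17:24724374-24724673, minus strand, no match: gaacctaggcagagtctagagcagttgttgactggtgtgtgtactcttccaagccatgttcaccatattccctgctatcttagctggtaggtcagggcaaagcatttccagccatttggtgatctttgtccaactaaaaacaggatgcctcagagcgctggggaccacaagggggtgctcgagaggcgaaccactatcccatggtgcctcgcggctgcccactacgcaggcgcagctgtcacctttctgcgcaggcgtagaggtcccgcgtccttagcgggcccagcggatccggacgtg
Ndufs7, chr10:80249199-80249498, plus strand, YY1: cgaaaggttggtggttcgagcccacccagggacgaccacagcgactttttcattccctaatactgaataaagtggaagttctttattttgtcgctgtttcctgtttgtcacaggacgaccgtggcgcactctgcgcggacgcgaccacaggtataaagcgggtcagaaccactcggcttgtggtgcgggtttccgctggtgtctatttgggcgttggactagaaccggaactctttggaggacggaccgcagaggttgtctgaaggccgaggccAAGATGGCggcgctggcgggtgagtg
Atp5md, chr19:47090598-47090897, minus strand, ETS: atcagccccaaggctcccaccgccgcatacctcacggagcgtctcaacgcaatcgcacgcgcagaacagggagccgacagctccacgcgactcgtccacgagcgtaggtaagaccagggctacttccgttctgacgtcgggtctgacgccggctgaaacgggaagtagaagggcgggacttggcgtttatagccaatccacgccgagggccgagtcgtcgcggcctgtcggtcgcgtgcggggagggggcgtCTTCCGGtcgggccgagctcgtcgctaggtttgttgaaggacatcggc
Ndufb7, chr8:83566508-83566807, plus strand, ETS: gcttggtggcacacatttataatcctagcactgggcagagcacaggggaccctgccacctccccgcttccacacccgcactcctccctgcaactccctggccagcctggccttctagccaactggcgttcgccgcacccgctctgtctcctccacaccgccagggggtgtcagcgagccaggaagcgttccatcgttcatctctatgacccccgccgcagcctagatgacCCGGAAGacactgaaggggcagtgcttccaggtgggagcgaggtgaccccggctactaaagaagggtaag
Atp5o, chr16:91931581-91931880, minus strand, NRF1: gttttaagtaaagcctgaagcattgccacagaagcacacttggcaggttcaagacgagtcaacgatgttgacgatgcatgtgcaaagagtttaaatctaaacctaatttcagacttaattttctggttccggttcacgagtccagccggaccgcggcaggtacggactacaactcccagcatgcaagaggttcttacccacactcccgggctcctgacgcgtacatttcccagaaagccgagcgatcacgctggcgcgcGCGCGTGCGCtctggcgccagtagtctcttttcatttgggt
Of the 79 subunit genes, 65 had a promoter in the table. The NRF1 letters stood in 15 of them (23.08%, against 5.188% of 27025 genes), the ETS letters in 17 (26.15%, against 9.928%) and the YY1 letters in 9 (13.85%, against 3.19%). The NRF1 letters were in 6 of 15 promoters of complex V and in 1 of 14 of complex IV. The YY1 letters were in 6 of 29 promoters of complex I and 3 of 15 of complex V, and in none of complexes II, III and IV. A match is a stretch of letters in this window and not a measured binding site.

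The first comparison set GFP-plus against GFP-minus DCs. Most subunit genes had lower values in GFP-plus DCs: 67 of 79 had a negative log2 difference, with a median of -0.55 (0.685-fold), where 52.9% of all genes were below 0 and their median was -0.022. Ndufa10 and Ndufb10, both accessory subunits of the membrane arm of complex I, were the 2 members that fell (limma, Benjamini-Hochberg adjusted p = 0.0470 and 0.0281), and no member rose. That is 2 of 79 members, where 1.58% of all genes passed and 1.26% passed as lower. At an unadjusted p under 0.05, 23 members were lower and none higher, where 10% of all genes were lower. In these sorted samples, fewer cells of a type and less RNA per cell cannot be told apart.

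Ndufb10 had centred log2 values of -1.66, -1.69 and -1.14 in GFP-plus DCs, against -0.26, 0.050 and 0.30 in GFP-minus DCs. The groups did not overlap, and the difference was -1.53 ± 0.31 log2 (SE, 3 arrays each), or 0.347-fold. Ndufa10 had -2.35, -0.82 and -1.001 in GFP-plus DCs, against -0.094, 0.37 and 0.48 in GFP-minus DCs, a difference of -1.64 ± 0.38 log2 (0.320-fold). The lowest of these values was that of the low-quality array, and both other GFP-plus arrays also lay below all GFP-minus arrays. The call of Ndufb10 held under 18 of 25 alternative settings and that of Ndufa10 under 5. Neither gene passed after quantile normalization (limma adjusted p = 0.649 for Ndufb10 and 0.621 for Ndufa10) or without the 4 low-quality arrays (0.092 and 0.102).

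**Figure D1:**
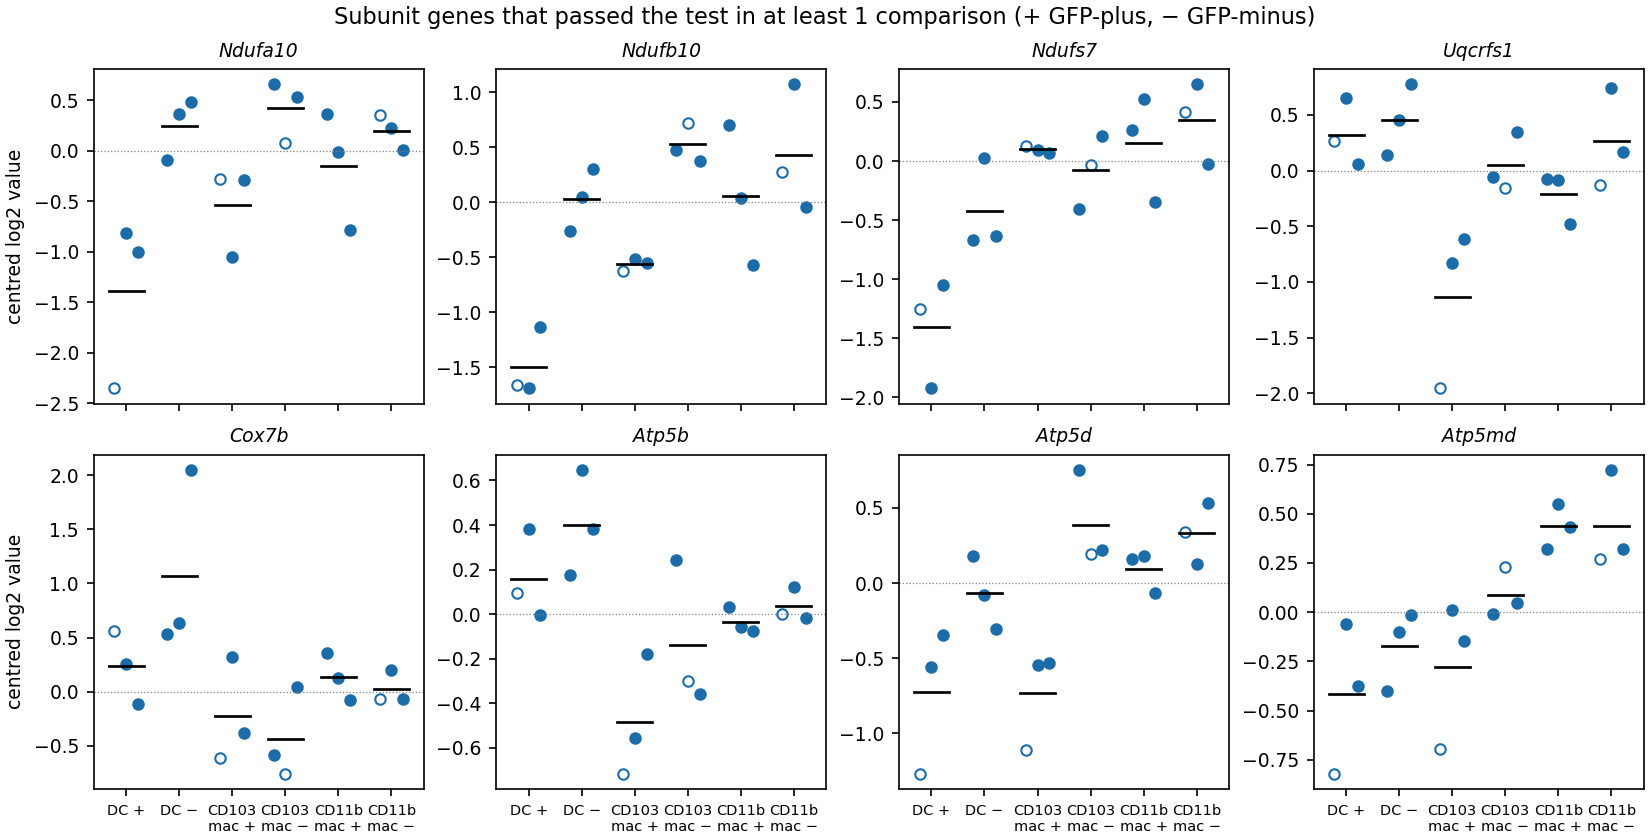
Centred log2 values of the 8 subunit genes that passed the test in at least 1 comparison, in the 6 groups, with GFP-plus (+) left of GFP-minus (−) in each population. Points are arrays, open points the 4 low-quality arrays and bars group means. Ndufb10 lies at -1.69 to -1.14 in GFP-plus DCs, and Atp5md lies higher on every CD11b macrophage array than on any DC array.

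Complex I had a median difference of -0.73 in GFP-plus DCs, with 31 of 32 genes below 0. The exception was Ndufs5, an accessory subunit, at 0.68. There replicate 1 of the GFP-plus DCs, a low-quality array, stood at 2.53 and both others at -0.15 and -0.38. A probe shared by Ndufs5 and Ndufs5-ps, not counted here, was at -0.92 in this comparison. The 6 nuclear core subunits of complex I had a median of -1.07, and the 26 accessory subunits one of -0.70. Among the core subunits, Ndufv1, which binds NADH, was at -1.45, -0.044 and -2.62 in GFP-plus DCs, against 0.093, 0.086 and -0.28 in GFP-minus DCs. Replicate 2 of the GFP-plus DCs lay within the GFP-minus range, and the difference of -1.34 ± 0.47 did not pass (limma adjusted p = 0.181). Ndufs1, the largest iron-sulfur subunit, was at -0.49 ± 0.64. Ndufa9, an accessory subunit at the junction of both arms, had the lowest difference of complex I, with -1.62, -1.27 and -2.34 in GFP-plus DCs and 0.16, -0.059 and 0.56 in GFP-minus DCs. Its groups did not overlap, yet it did not pass (-1.97 ± 0.61, limma adjusted p = 0.125).

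Complex III was below 0 in all 7 genes in GFP-plus DCs, with a median difference of -0.88, and 3 of the 7 had an unadjusted p under 0.05. The median of its genes per array was -0.49, -0.45 and -0.42 in GFP-plus DCs and 0.14, 0.46 and 0.40 in GFP-minus DCs, with no overlap. Uqcrc1, a core protein of complex III, was at -1.26 ± 0.63, and Uqcrh, the hinge protein, at -1.45 ± 0.62. The Uqcrh value came mainly from replicate 3 of the GFP-plus DCs, at -3.43, while replicates 1 and 2 were at -0.071 and -0.66. Uqcrfs1, the Rieske iron-sulfur protein, was at -0.13 ± 0.32, the highest of the 7.

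Complex V had a median difference of -0.37 in GFP-plus DCs, with 14 of 17 genes below 0. The 5 subunits of the catalytic head and central stalk had a median of -0.66, and all 5 were below 0. The 4 subunits of the peripheral stalk had a median of -0.61, the 3 genes of the c ring one of -0.40 and the 5 small membrane subunits one of -0.012. Atp5o, the stalk subunit that holds the head in place, had -1.51, -0.98 and -0.89 in GFP-plus DCs, against 0.035, 0.35 and 0.86 in GFP-minus DCs. The groups did not overlap, and its difference of -1.54 ± 0.37 lay just outside the threshold (limma adjusted p = 0.0578). Atp5l, a membrane subunit, had 0.30, 0.079 and 0.084 in GFP-plus DCs and 0.35, 0.080 and 0.073 in GFP-minus DCs. Its groups overlapped, with a difference of -0.012 ± 0.13. In the head, Atp5a1 was at -0.69 ± 0.22 and Atp5b, the catalytic subunit, at -0.24 ± 0.18, and neither passed. Whether the parts of complex V, or the complexes, differ in their change was not tested.

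Complex IV had a median difference of -0.26 in GFP-plus DCs, with 11 of 19 genes below 0. It holds the 8 isoform genes known for expression in other tissues, such as muscle, testis or lung (Cox4i2, Cox6a2, Cox6b2, Cox7a1, Cox7b2, Cox8b, Cox8c and Ndufa4l2). These 8 had a median of 0.082 and the other 71 subunits one of -0.56. Of the 8 complex IV genes above 0, 5 were such isoforms, so the complex IV median is not like for like with those of the other complexes. Cox4i1, the widely expressed form of the subunit that takes part in regulating the enzyme, was at -0.32, and its lung form Cox4i2 at 0.28. Cox7a2, a widely expressed isoform, was at -1.09 ± 0.44 and Cox7a1, the muscle isoform, at -1.44 ± 0.44. Neither passed (limma adjusted p = 0.250 and 0.117). Cox5a, of the core-binding subunits, was at 0.31 ± 0.28. Since these values hold no absolute levels, whether such isoforms were above background is unknown.

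Complex II, succinate dehydrogenase, had a median difference of -0.66 with all 4 genes below 0, and varied widely between arrays. Its median per array was -1.49, -0.13 and -1.13 in GFP-plus DCs, against -0.35, 0.10 and -0.15 in GFP-minus DCs, so the groups overlapped. Sdhd, a membrane anchor, had the lowest difference of all 79 genes (-2.03 ± 0.78, limma adjusted p = 0.226). Its values were -2.28, 0.10 and -2.72 in GFP-plus DCs and 0.68, 1.27 and -0.74 in GFP-minus DCs, which also overlap. Sdha, the flavoprotein, was at -0.98 ± 0.60 and Sdhb, the iron-sulfur subunit, at -0.35 ± 0.40. The assembly factors Sdhaf1 to Sdhaf4 were at -1.18, -0.42, -0.16 and -1.43, and none passed.

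**Figure D2:**
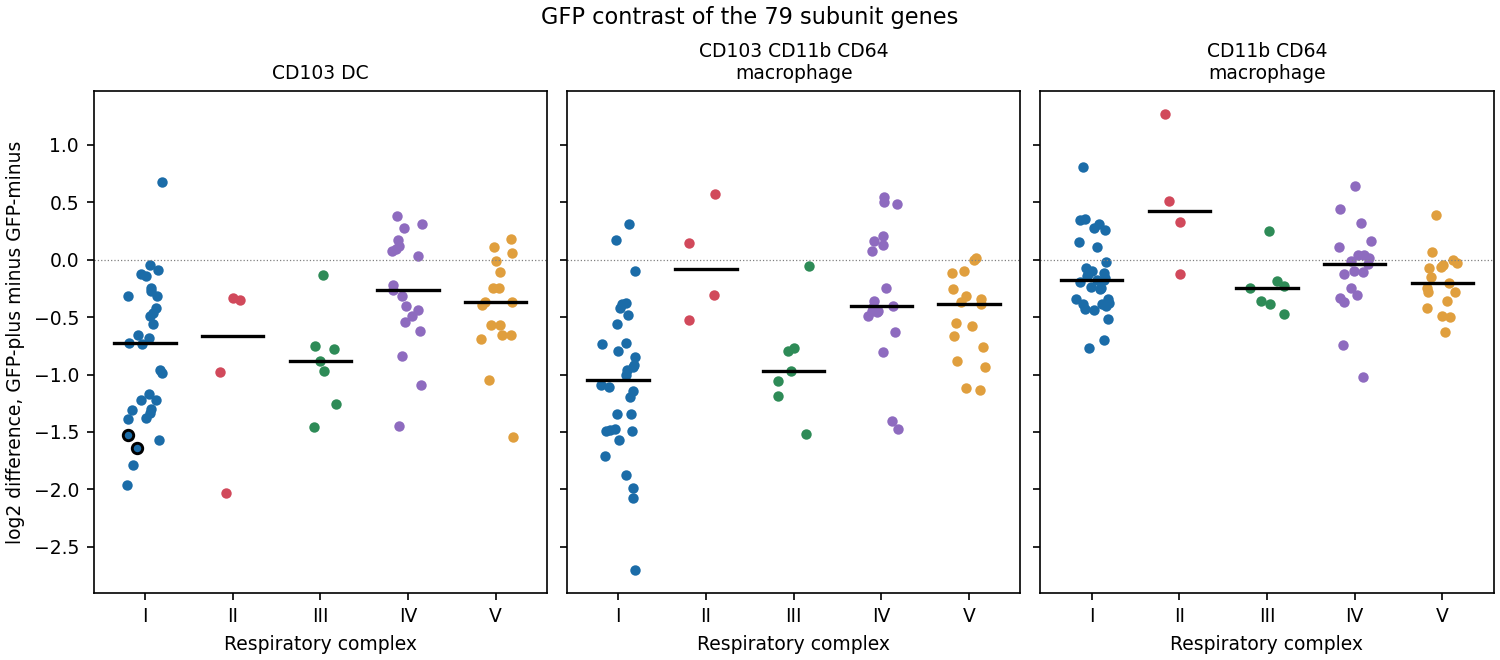
Fitted log2 difference, GFP-plus minus GFP-minus, of each of the 79 subunit genes by complex (I to V) in DCs, CD103 macrophages and CD11b macrophages. Points are genes, bars medians, and black rings mark the 2 genes with an adjusted p under 0.05, Ndufa10 and Ndufb10 in DCs. Complex I has a median of -0.73 in DCs, -1.05 in CD103 macrophages and -0.18 in CD11b macrophages.

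Over all 79 genes, the median centred log2 value was -0.27, -0.0050 and -0.37 on GFP-plus DC arrays, against 0.10, 0.21 and 0.23 on GFP-minus DC arrays. In 21 genes all GFP-plus arrays lay below all GFP-minus arrays, and in none above, where 11.5% of all genes lay below and 8.66% above in this way. The median difference was -0.31 after quantile normalization and -0.38 without the low-quality GFP-plus replicate 1. Other lists moved with GFP in DCs: 10 of 11 macrophage markers were below 0 (median -0.85, 2 called lower), as were 8 of 8 T and innate lymphocyte markers (median -1.07, 1 called lower) and 4 of 4 monocyte markers (median -1.87, none called) and 5 of 5 B and plasma cell markers (median -0.59, Ighm called lower). Of 14 enterocyte markers, 11 were above 0 (median 0.23, none called), and of 6 markers of secretory epithelium 4 were above 0 (median 0.64). In that list, the Paneth cell gene Defa24 was called higher at 4.34 ± 0.54 (limma adjusted p = 0.00116). Per array, the median of the lymphocyte list was -0.54, -0.41 and -0.30 in GFP-plus DCs and -0.0089, 1.33 and 0.76 in GFP-minus DCs. That of the macrophage list was -5.50, -5.06 and -5.17 in GFP-plus DCs and -4.74, -3.79 and -4.34 in GFP-minus DCs. Centred values cannot show a marker at 0, and the part of these lists in the result was not tested.

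In CD103 macrophages GFP-plus cells also had lower values than GFP-minus cells in 67 of 79 genes, with a median difference of -0.63 (0.646-fold), where 47.2% of all genes were below 0 and their median was 0.016. No member passed the limma test, where 0.0541% of all genes did. At an unadjusted p under 0.05, 29 members were lower and 2 higher, where 3.79% of all genes were lower and 5.41% higher. In 32 members all GFP-plus arrays lay below all GFP-minus arrays, and in 3 above, against 5.44% and 7.54% of all genes. The smallest limma adjusted p was 0.105, for Ndufb7, an accessory subunit of the complex I membrane arm. It had -3.62, -1.25 and -1.37 in GFP-plus CD103 macrophages, against 0.54, 0.93 and 0.40 in GFP-minus cells, a difference of -2.70 ± 0.56. The groups did not overlap, and the low-quality GFP-plus array was the lowest.

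Complex I had a median of -1.05 in CD103 macrophages (30 of 32 below 0) and complex III one of -0.97 (7 of 7 below 0). Complex V stood at -0.38 (16 of 17) and complex IV at -0.40 (12 of 19). All 26 accessory subunits of complex I were below 0 (median -1.13), among them Ndufa3 at -1.88 ± 0.50 and Ndufa7 at -1.71 ± 0.45. The 6 core subunits had a median of -0.73. Of these, Ndufs8, which holds iron-sulfur clusters, was at -1.99 ± 0.67, while Ndufs7, next to it in the path to ubiquinone, was at 0.17 ± 0.28. Cox4i1 had -1.99, -0.25 and -0.35 in GFP-plus CD103 macrophages, against 0.87, 0.79 and 0.17 in GFP-minus cells. Those groups did not overlap, and the difference was -1.48 ± 0.37 (limma adjusted p = 0.164). Both members that were higher at an unadjusted p under 0.05 were isoforms of other tissues, Cox4i2 (0.50 ± 0.22) and Cox8c (0.48 ± 0.18). The 8 such isoforms had a median of 0.15 and the other 71 subunits one of -0.76. Of the 7 complex IV genes above 0, 6 were these isoforms.

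Complex II had a median of -0.079 in CD103 macrophages, with 2 of 4 genes below 0. Its lowest array was GFP-minus replicate 2, at -1.39 against -0.049 and -0.0092 on the other GFP-minus arrays, and the GFP-plus arrays were at -0.49, -0.30 and 0.20. On that low-quality GFP-minus array the other complexes were not low, with medians of 0.29, 0.056, 0.056 and 0.13 for complexes I, III, IV and V.

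A single array carried much of the size in CD103 macrophages. The median of the 79 genes was -1.09, -0.15 and -0.36 on GFP-plus arrays, against 0.17, 0.13 and 0.033 on GFP-minus arrays. Replicate 1 of the GFP-plus cells, the array of lowest weight, had a complex I median of -1.78 and a complex III median of -1.84. Without it, the median difference was -0.37 over all members and -0.50 for complex I. Without all 4 low-quality arrays it was -0.35 over all members, with 59 of 79 below 0. All GFP-plus arrays, replicate 1 included, lay below all GFP-minus arrays in the median of all members and of complexes I, III and V, and overlapped them in complexes II and IV. In the same comparison 8 of 8 lymphocyte markers were below 0 (median -2.18, 1 called lower), with array medians of -0.070, 0.50 and 0.75 in GFP-plus and 2.00, 1.84 and 4.41 in GFP-minus CD103 macrophages. The 4 monocyte markers were also below 0 (median -2.27, none called), as were 6 of 9 DC markers (median -0.78, 5 lower at an unadjusted p under 0.05, none called). The part of these markers in the result was not tested.

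**Figure D3:**
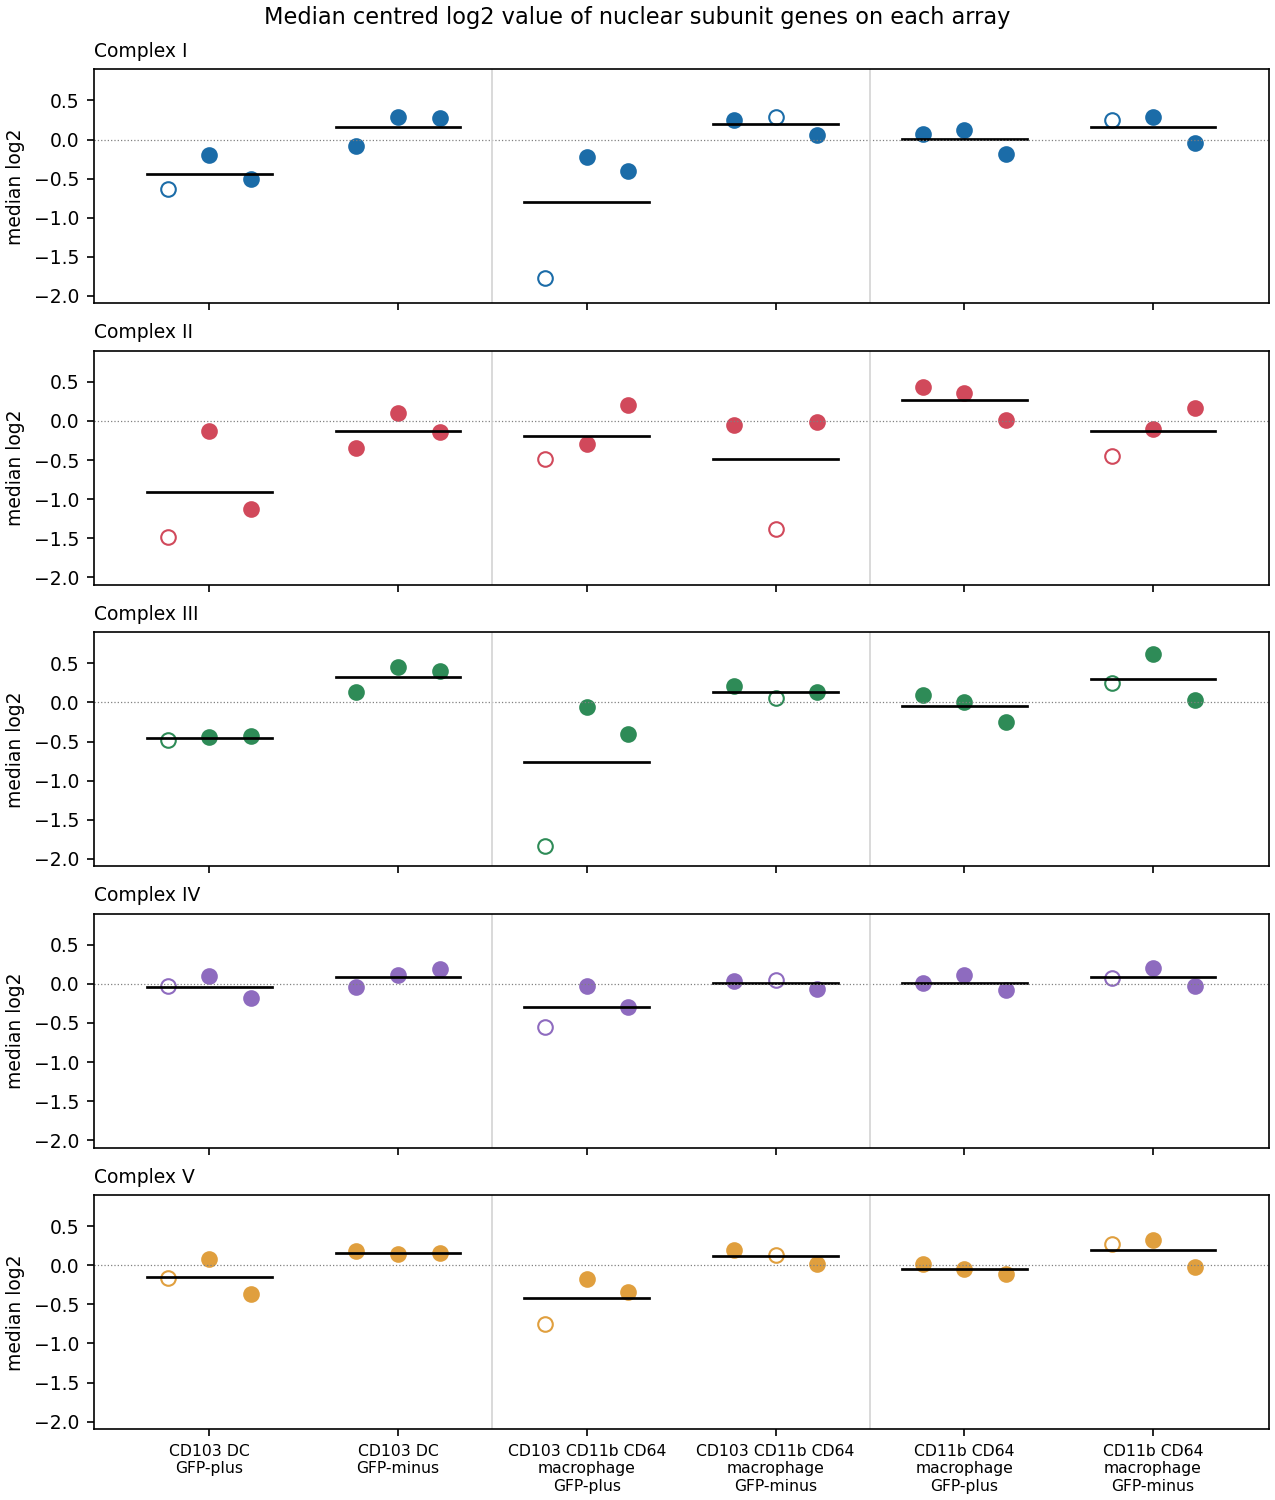
Median centred log2 value of the subunit genes of each complex (I to V) on each of the 18 arrays, with GFP-plus left of GFP-minus in each population. Points are arrays, open points the 4 low-quality arrays and bars the mean of 3 arrays. GFP-plus CD103 macrophage replicate 1 lies at -1.78 for complex I and -1.84 for complex III, while complex II has its lowest value, -1.49, on GFP-plus DC replicate 1.

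In CD11b macrophages 57 of 79 members were below 0 in GFP-plus against GFP-minus cells, with a median of -0.15, where 48.1% of all genes were below 0 and their median was 0.011. No member passed the limma test, where 0.0271% of all genes did. The 2 members with an unadjusted p under 0.05 were Cox7a1 and Atp5j2, a membrane subunit, both lower, where 1.8% of all genes were lower. The array medians of all members were 0.048, 0.096 and -0.12 in GFP-plus and 0.20, 0.25 and -0.028 in GFP-minus CD11b macrophages, which overlap. Complexes I, III and V had medians of -0.18, -0.24 and -0.20, and complex IV one of -0.035. Of the 8 complex IV genes above 0, 4 were isoforms of other tissues. Complex II was at 0.42, with 3 of 4 genes above 0, and at 0.26 without the low-quality arrays. There Sdhd had 0.47, 1.09 and 0.70 in GFP-plus cells, against -2.27, 0.39 and 0.34 in GFP-minus cells. Those groups did not overlap, the lowest value was on the low-quality array, and the difference of 1.27 ± 0.78 did not pass (limma adjusted p = 0.874). Of the 4 monocyte markers 3 were below 0 (median -1.94), and Plac8 was called lower at -3.62 ± 0.49 (limma adjusted p = 0.0180). Their array medians were -0.18, -0.29 and -0.53 in GFP-plus and 0.92, 0.69 and 1.24 in GFP-minus CD11b macrophages, and their part in the result was not tested.

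Whether the GFP difference varied between the 3 populations was tested gene by gene with limma's F-test. No member passed (smallest adjusted p = 0.266, Cox7a1), where 0.361% of all genes did. At an unadjusted p under 0.05 there were 5 of 79 members, where 12.6% of all genes had one. A difference in GFP response between populations was thus not shown for any single subunit.

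The subunits that mitochondrial DNA encodes ran the other way. In DCs all 10 measured (ND1, ND2, ND3, ND4, ND4L, ND5, ND6, COX1, COX3 and CYTB) had higher values in GFP-plus than in GFP-minus cells, with a median of 0.26 and a range of 0.14 to 0.39. For each of the 10, all GFP-plus arrays lay above all GFP-minus arrays, where 8.66% of all genes did. The median of the 10 genes per array was 0.40, 0.29 and 0.26 in GFP-plus DCs, against 0.089, -0.029 and 0.076 in GFP-minus DCs. None passed, with COX3 at 0.38 ± 0.11 and ND6 at 0.39 ± 0.13 (limma adjusted p = 0.112 and 0.132). At an unadjusted p under 0.05, 4 were higher, where 1190 of all 22180 genes were higher. In CD103 macrophages all 10 were also above 0 (median 0.44), with ND5 at 0.74 ± 0.16 (limma adjusted p = 0.120). There 8 were higher at an unadjusted p under 0.05, where 5.41% of all genes were. In 5 of the 10 all GFP-plus CD103 macrophage arrays lay above all GFP-minus arrays, where 7.54% of all genes did. In CD11b macrophages 7 of 10 were above 0, with a median of 0.018. These 10 transcripts come from 1 small genome with shared promoters and are not independent of each other.

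**Figure D4:**
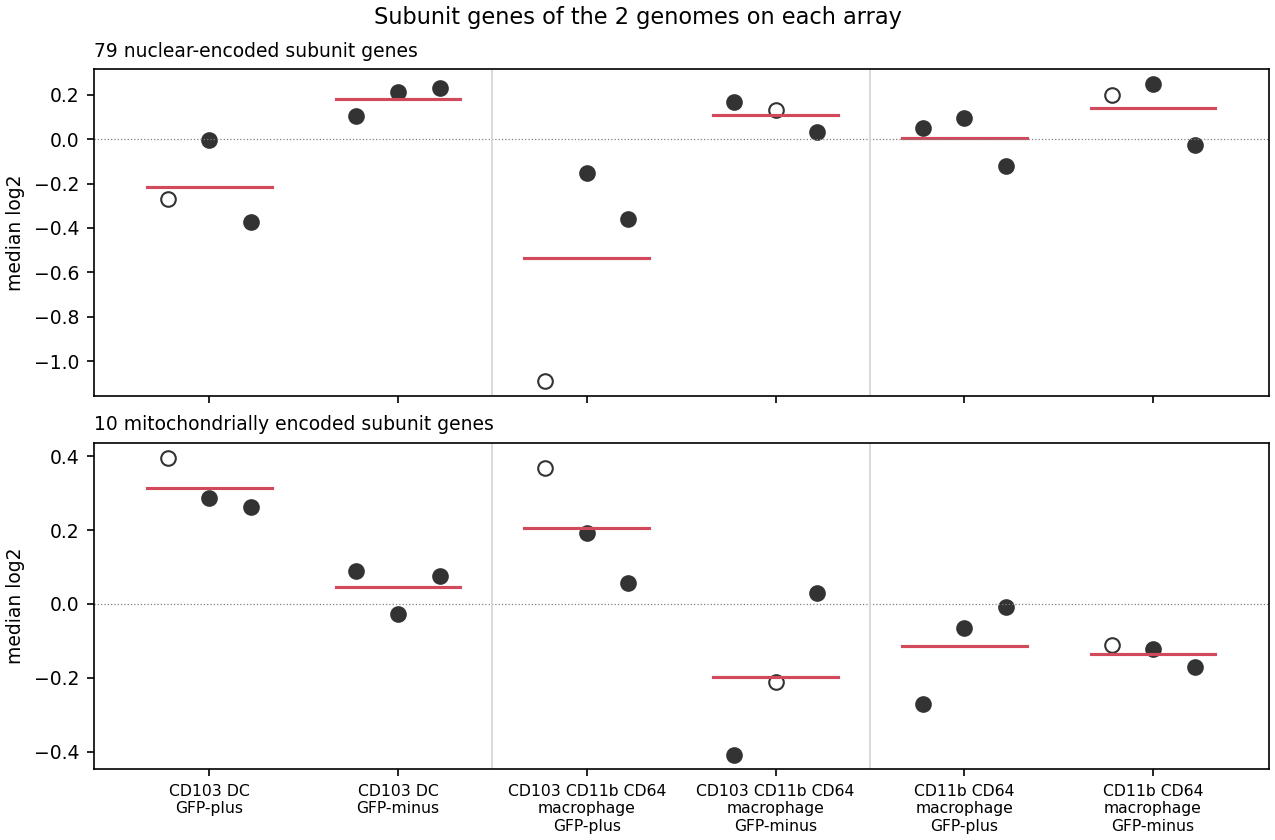
Median centred log2 value on each of the 18 arrays, for the 79 nuclear-encoded subunit genes and for 10 mitochondrially encoded ones. Points are arrays, open points the 4 low-quality arrays and bars the mean of 3 arrays. In DCs the GFP-plus arrays lie below the GFP-minus arrays for the nuclear genes (-0.37 to -0.0050) and above them for the mitochondrial ones (0.26 to 0.40).

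Other gene lists were shifted in the same comparisons. The 71 genes of the mitochondrial ribosome had median differences of -0.66 in GFP-plus DCs (64 below 0), -0.68 in CD103 macrophages (62 below 0) and 0.055 in CD11b macrophages. In DCs 2 of them fell, Mrpl3 (-2.97 ± 0.53) and Mrpl20 (-1.40 ± 0.29), both of the large subunit (limma adjusted p = 0.0156 and 0.0323). The 43 assembly factors of the complexes stood at -0.49 in DCs, -0.20 in CD103 macrophages and 0.084 in CD11b macrophages, and 32 electron carriers and enzymes of the tricarboxylic acid cycle at -0.54, -0.30 and 0.095 in the same order. The 21 regulators of mitochondrial genes stood at -0.22, 0.071 and 0.33. No gene of these 3 lists passed in a GFP comparison. Outside mitochondria, the 39 proteasome genes had medians of -0.37, -0.32 and 0.051, with 2 called lower in DCs. The 69 cytosolic ribosomal protein genes had -0.18, -0.53 and -0.29, and 16 glycolysis genes -0.29, -0.022 and -0.0027, with none called.

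**Figure D5:**
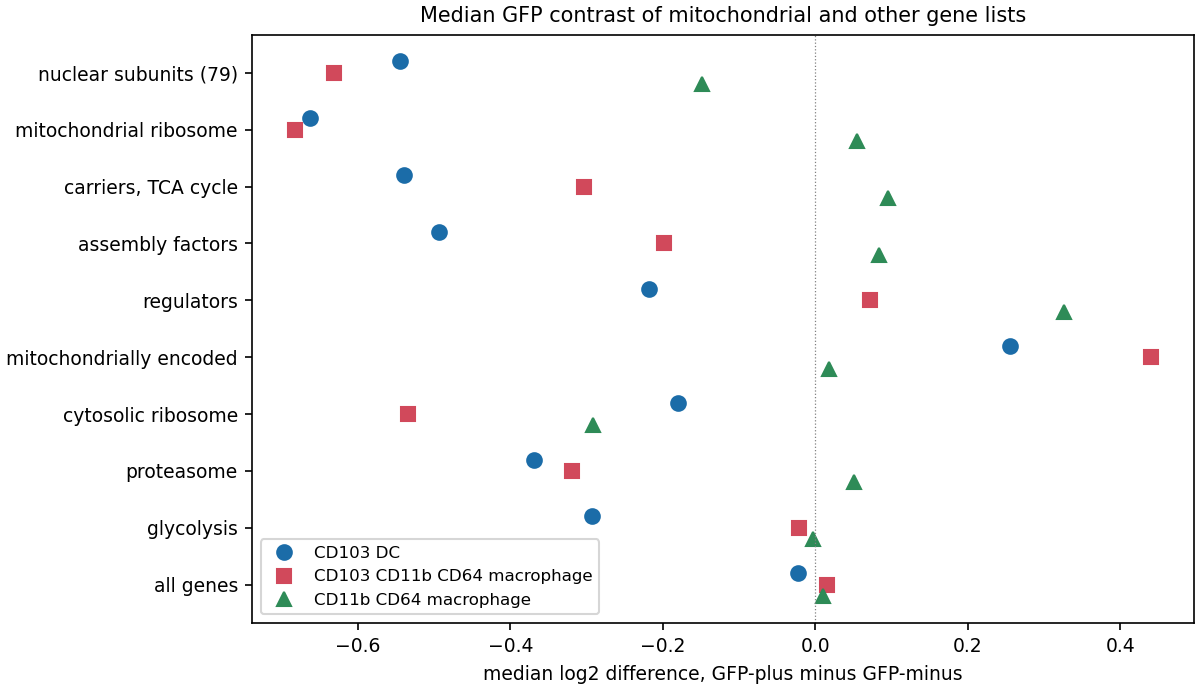
Median log2 difference, GFP-plus minus GFP-minus, of the 79 subunit genes, of 8 other lists of mitochondrial, ribosomal, proteasome and glycolysis genes and of all genes, in DCs (circles), CD103 macrophages (squares) and CD11b macrophages (triangles). The nuclear subunits (-0.55 and -0.63) and the mitochondrial ribosome (-0.66 and -0.68) have the lowest medians of the lists plotted in DCs and CD103 macrophages, marker lists not being plotted, and the mitochondrially encoded genes lie right of 0.

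Between populations, with both GFP gates averaged, DCs differed from CD11b macrophages in 4 members, all lower in DCs: Ndufs7, Atp5md, Ndufb10 and Atp5d. That is 4 of 79, where 8.12% of all genes passed and 5.94% were lower. Atp5md, a small membrane subunit of the ATP synthase, passed under all 25 alternatives run. It had -0.82, -0.060 and -0.37 in GFP-plus and -0.40, -0.098 and -0.016 in GFP-minus DCs, against 0.32, 0.55 and 0.43 in GFP-plus and 0.27, 0.72 and 0.32 in GFP-minus CD11b macrophages. No DC array reached any CD11b macrophage array, and the difference was -0.73 ± 0.15 log2, or 0.602-fold (limma adjusted p = 0.00559). CD103 macrophages had -0.69, 0.0093 and -0.14 with GFP and -0.0093, 0.23 and 0.046 without, all below the CD11b macrophage arrays and overlapping the DC arrays.

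Ndufs7, the core subunit with the last iron-sulfur cluster before ubiquinone, was lower in DCs than in CD11b macrophages, with a difference of -1.16 ± 0.20 (limma adjusted p = 0.00141, and 0.0954 after quantile normalization). It had -1.25, -1.92 and -1.05 in GFP-plus and -0.67, 0.028 and -0.63 in GFP-minus DCs, against 0.27, 0.52 and -0.34 in GFP-plus and 0.41, 0.65 and -0.028 in GFP-minus CD11b macrophages. All GFP-plus DC arrays lay below all macrophage arrays, while GFP-minus DCs overlapped them. Ndufb10 differed by -0.98 ± 0.22 (limma adjusted p = 0.0101), a call lost after quantile normalization (0.487) and without the 4 low-quality arrays. Its GFP-minus DCs averaged 0.030 ± 0.28 (SD, n = 3), within the range of CD11b macrophages (-0.57 to 1.07), and its GFP-plus DCs lay below that range. Atp5d, of the central stalk, differed by -0.61 ± 0.17 (limma adjusted p = 0.0430), and its call held under 11 of 25 alternatives. Over all members the median was -0.076 with 49 below 0, where 55.3% of all genes were below 0, and it was 0.075 after quantile normalization.

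DCs differed from CD103 macrophages in 4 members as well, where 7.93% of all genes passed: 1 member was lower in DCs (5.33% of all genes) and 3 were higher (2.6%). Over all members the median difference was 0.12, with 27 below 0, where 54.5% of all genes were below 0. It shrank to 0.0078, with 39 below 0, without the low-quality GFP-plus CD103 macrophage replicate 1. Without all 4 low-quality arrays it was 0.013, with 37 below 0. This comparison uses the same DC arrays as that with CD11b macrophages. Ndufs7 was lower in DCs (-0.93 ± 0.20, limma adjusted p = 0.00834, and 0.232 after quantile normalization), with CD103 macrophages at 0.13, 0.096 and 0.072 in GFP-plus and -0.40, -0.031 and 0.22 in GFP-minus cells. Atp5b was higher in DCs by 0.59 ± 0.13 (1.51-fold, limma adjusted p = 0.00971), Uqcrfs1 by 0.93 ± 0.23 (adjusted p = 0.0190) and Cox7b, a small subunit of complex IV, by 0.98 ± 0.26 (adjusted p = 0.0274). All 8 lymphocyte markers were lower in DCs than in CD103 macrophages (median -1.33, 4 called), and their part in the result was not tested.

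Uqcrfs1 had 0.26, 0.65 and 0.056 in GFP-plus and 0.14, 0.46 and 0.77 in GFP-minus DCs, against -1.957, -0.83 and -0.62 in GFP-plus and -0.056, -0.15 and 0.35 in GFP-minus CD103 macrophages. The GFP-plus macrophages were the low group, and 1 GFP-minus macrophage array lay within the DC range. Atp5b had 0.094, 0.38 and -0.0027 in GFP-plus and 0.18, 0.65 and 0.38 in GFP-minus DCs, against -0.72, -0.55 and -0.18 in GFP-plus and 0.24, -0.30 and -0.36 in GFP-minus CD103 macrophages. Again 1 GFP-minus macrophage array, replicate 1, lay within the DC range. Cox7b had 0.56, 0.26 and -0.11 in GFP-plus and 0.53, 0.63 and 2.05 in GFP-minus DCs, against -0.62, 0.32 and -0.39 in GFP-plus and -0.58, -0.76 and 0.038 in GFP-minus CD103 macrophages. Those overlap, and 1 DC array, GFP-minus replicate 3, was far above the rest. Without the 4 low-quality arrays none of these genes passed (limma adjusted p = 0.0584 for Ndufs7, 0.0818 for Atp5b, 0.0584 for Uqcrfs1 and 0.223 for Cox7b), and Cox5a and Ndufa12 passed instead.

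CD103 and CD11b macrophages differed in no member (limma, smallest adjusted p = 0.449, Cox7a1), where 0.0721% of all genes passed, and 6 members had an unadjusted p under 0.05, all lower in CD103 macrophages (3.14% of all genes). Of 79 members 70 were below 0 (53.1% of all genes), with a median of -0.32, or -0.14 without the 4 low-quality arrays. Complex I had a median of -0.43, complex II -0.43, complex III -0.44, complex IV -0.18 and complex V -0.20. All 6 complex IV genes above 0 were isoforms of other tissues. In GFP-minus cells the array medians of all members were 0.17, 0.13 and 0.033 in CD103 macrophages and 0.20, 0.25 and -0.028 in CD11b macrophages, which overlap. All 8 lymphocyte markers were higher in CD103 than in CD11b macrophages (median 1.80, 6 at an unadjusted p under 0.05), with Gzma, a granzyme of cytotoxic lymphocytes, called at 3.67 ± 0.33 (limma adjusted p = 0.000287). Their part in the lower subunit values was not tested.

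Some members rest on probes that disagree. Of the 9 subunit genes with 2 probes, Atp5d, Atp5e, Atp5g2 and Ndufa12 had probes that ran together over the 18 arrays (r of 0.940 to 0.993, as a description), while Ndufa11, Atp5h, Cox7b and Cox5b had r of 0.231 to 0.559. Atp5h, of the peripheral stalk, was at 0.23 by its first probe and -1.36 by its second in GFP-plus against GFP-minus DCs. Cox7b was at -1.81 by its first probe and 0.13 by its second in the same comparison, and both its probes were higher in DCs than in CD103 macrophages (1.11 and 0.85). A further 10 probes hold a subunit symbol together with another gene's and were not counted. Among them, those of Ndufb4 and Ndufb2, the lowest in CD103 macrophages, were at -0.84 and -0.99 in GFP-plus DCs and -1.83 and -1.40 in GFP-plus CD103 macrophages, each against GFP-minus cells. Others were near 0 or above it in some populations. The probe of Ndufs5 and Ndufs5-ps was at -0.92 in DCs, 0.87 in CD103 macrophages and 0.83 in CD11b macrophages. The Cox6c probes were at -0.36 and 0.0069 in DCs and at 0.0067 and -0.996 in CD103 macrophages. A probe of Ndufs6 was at 0.37 in DCs and -0.40 in CD103 macrophages.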

How the data were processed

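Sorted phagocytes were profiled on 18 arrays, 3 for each of 6 groups taken from the sample titles. Per the labels' protocols, cells were sorted into TRIzol LS, and RNA was purified with RNeasy columns and DNase, amplified with WT Ovation Pico (NuGEN) and labelled with biotin. The authors deposited 1 table of log2 values for 33793 probes. Its log base, background correction and normalization were not given in the sources used. Base 2 was inferred from the widest span of a probe (10.15), and every probe is centred on its median over the arrays. With no intensities, detection over background is unknown, and the number of arrays limits the precision.

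Of the probes, 23521 name 1 gene symbol in the platform annotation, 1814 several and 8458 none. Probes of a gene were averaged, giving 22180 genes. Means of the 6 groups were fitted with limma 3.58.1 (R 4.3.3) to all 18 arrays, with 12 residual and 2.089 prior degrees of freedom. P-values were adjusted by Benjamini-Hochberg over all genes, with a threshold of 0.05, two-sided, and no filter on low values. Summaries used Python 3.11.15 with pandas 2.3.3, and the fit was tested on simulated data, with 50 genes planted per size. Differences of 0.5 log2 were recovered in 10% for GFP in DCs, 6% in CD103 macrophages and 10% in CD11b macrophages. Those of 1 log2 were recovered in 46%, 44% and 52%, and those of 2 log2 in 82%, 78% and 76%. A member that did not pass may thus still differ. Population comparisons averaged GFP-plus and GFP-minus groups.

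The members, the gene lists and the rule for named genes were chosen with earlier results of these data known. The rule named, per comparison, the members past the threshold, the 5 of smallest p where fewer than 5 passed, the extremes of each complex, 2 core subunits of each complex and the isoforms. Atp5l, Ndufs8, Ndufs7 in CD103 macrophages, the mitochondrially encoded genes that did not pass and the shared probes were named after their values were seen. Replicate numbers were checked as pairs: of 9 pairs of GFP-plus and GFP-minus arrays with the same number, 2 had correlated deviations over 0.1. On this ground the numbers were not used to pair samples in the main fit. Over all groups, 13 of 45 same-number pairs were over 0.1 (highest 0.337), and 11 of 18 arrays correlated best with their own number. Whether arrays of the same number share a source was not tested. Alternatives were quantile normalization, median centring, array weights, the 4 low-quality arrays left out, each array left out, a fit to the compared groups, single probes and a replicate block.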

Additional observations from a re-analysis of the deposited data

Results flagged for a closer look

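In 2 genes, picked from these data, GFP-plus and GFP-minus arrays did not overlap in either of 2 populations, with opposite directions. Of all genes, 11.5% had all GFP-plus arrays below all GFP-minus arrays in DCs. All GFP-plus arrays lay above in 7.54% in CD103 macrophages and in 2136 of 22180 genes in CD11b macrophages. The share of all genes with opposite directions in 2 populations was not counted. Cox7a1, the muscle isoform of a small complex IV subunit, had -0.39, -0.84 and -0.91 in GFP-plus DCs, against 0.97, 0.85 and 0.37 in GFP-minus DCs, a difference of -1.444 on the log2 scale. In CD103 macrophages it had -0.039, -0.17 and -0.027 in GFP-plus and -0.90, -0.45 and -0.52 in GFP-minus cells, a difference of 0.5474. Neither difference passed in limma (adjusted p = 0.117 and 0.803).

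Atp5j, a subunit of the peripheral stalk of the ATP synthase, had 0.0019, 0.36 and -0.60 in GFP-plus DCs, against 0.47, 0.61 and 0.66 in GFP-minus DCs, a difference of -0.6579. In CD11b macrophages it had 0.14, 0.15 and 0.032 in GFP-plus and -0.45, -0.15 and -0.23 in GFP-minus cells, a difference of 0.3856. Neither passed in limma (adjusted p = 0.187 and 0.874). These pairs of populations were not tested against each other. The F-test over all 3 populations gave adjusted p = 0.266 for Cox7a1 and 0.305 for Atp5j (limma).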

How the results depend on the processing

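The median difference of the members kept its sign in each comparison under all alternatives, except DCs over CD11b macrophages, where it was 0.075 after quantile normalization against -0.076. For DCs over CD103 macrophages it went from 0.12 to 0.014 with array weights and to 0.013 without the 4 low-quality arrays. For GFP in DCs, the 2 members called became 0 after quantile normalization (median -0.31), 0 with array weights, 0 with the compared groups alone and 4 without the 4 low-quality arrays (Atp5o, Cox7a1, Ndufa9 and Ndufb3), and 3 with median centring. For GFP in CD103 macrophages, 0 became 7 after quantile normalization and 1 with array weights, and the median was -0.35 without the low-quality arrays. DCs over CD103 macrophages had 2 calls without the low-quality arrays, where 1913 of all 22180 genes were called. DCs over CD11b macrophages had 1 after quantile normalization, where 1630 of all genes were called, and 2 without the low-quality arrays, where 2058 were.

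Leaving out each array in turn gave 0 to 6 calls for GFP in DCs (median -0.6818 to -0.3845), with 0 without GFP-plus replicate 1 or GFP-minus replicate 2 or 3, and 6 without GFP-plus replicate 2. It gave 0 for GFP in CD103 macrophages (-0.7335 to -0.3651) and 0 in CD11b macrophages (-0.2591 to -0.0588). It gave 3 to 6 for DCs over CD103 macrophages (0.0078 to 0.2131), where 1492 to 1842 of all 22180 genes were called. For DCs over CD11b macrophages it gave 3 to 7 (-0.1359 to -0.0615), where 1409 to 2028 of all genes were called. Calls were 0 for CD103 over CD11b macrophages (-0.4462 to -0.1842) and 0 to 1 for the F-test (Cox7a1, without GFP-minus CD11b macrophage replicate 1).

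Over all genes, GFP in DCs gave 351 calls, against 37 after quantile normalization, 85 with the compared groups alone and 163 without GFP-plus DC replicate 1. It gave more, 503, without the 4 low-quality arrays, 558 without GFP-plus CD103 macrophage replicate 1 and 711 without GFP-plus DC replicate 2. GFP in CD103 macrophages gave 12, against 89 after quantile normalization, 95 with array weights, 30 without the low-quality arrays and 0 with the compared groups alone. GFP in CD11b macrophages gave 6, against 31, 53 and 9. CD103 over CD11b macrophages gave 16, against 43, 29 and, with the compared groups alone, 3. The F-test gave 80, against 35 and 193. With a replicate block, 2 members were called for GFP in DCs (Atp5o and Ndufb10), 5 for DCs over CD103 macrophages and 3 for DCs over CD11b macrophages. Over all genes these 3 comparisons then gave 411, 1812 and 1868 calls. Of 18 arrays, 11 correlated best with their own number. The cause of these changes was not tested.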
